A study of Mus musculus with 6 samples.

Results

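This account covers 10 transcription factor genes that pattern the limb, the spine and the joint in the embryo: Tbx4, Tbx5, Tbx15, Tbx18, Pitx1, Pax1, Pax9, Shox2, Barx1 and Meox1. They were picked by gene name from the 33971 genes of the table, with their values in these libraries already known, so the difference between the ages is a description for them, with no p-value, and whether they pass the limits used for other genes is no evidence about them. The data are RNA sequencing of articular cartilage, the tissue that covers the ends of bones in a joint, from wild-type mice aged 2 months (3 libraries) and 18 months (3 libraries). The labels name no genotype or treatment for either age, and wild type is taken from the study's text, which describes no transgene, deletion or treatment for this comparison. The study made the comparison to follow gene expression with ageing. The labels name neither the joint nor the strain, and they do not say whether the 3 libraries of an age came from separate animals. P-values given for other genes therefore measure only the spread between these libraries, which may be technical.

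T-box genes encode transcription factors that share a DNA-binding domain. In the limb bud, Tbx5 is needed for the forelimb to start, Tbx4 acts in the hindlimb, and the homeobox gene Pitx1 lies upstream of Tbx4 and gives the hindlimb its form. Tbx15 and Tbx18 act in limb and trunk mesenchyme and shape the shoulder blade and other bones. Shox2 controls the length of the upper limb segment, and Barx1 is a homeobox gene expressed in the forming joint and in the tooth and stomach mesenchyme. Pax1 and Pax9 act together in the sclerotome, the part of the somite that gives vertebrae and discs, and Meox1 acts in the early somite. Position cues of this kind can persist in adult connective tissue, where they differ between joints and body levels.

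Promoter windows were read for the members from RefSeq on GRCm38.p6, and 6 of 10 members matched (Tbx4, Tbx18, Pax1, Pax9, Shox2 and Barx1). The 4 lines that follow hold the 250 bases before the start in 5′ to 3′ order. They are shown because these members include a gene without a count at 18 months (Pax1), the hindlimb factor (Tbx4), the joint factor (Barx1) and the member with the highest level at 18 months (Shox2). Capitals mark TATAAA and CCGCCC on either strand (TTTATA and GGGCGG as the reverse complements), and neighbouring copies of CCGCCC may overlap.
Pax1: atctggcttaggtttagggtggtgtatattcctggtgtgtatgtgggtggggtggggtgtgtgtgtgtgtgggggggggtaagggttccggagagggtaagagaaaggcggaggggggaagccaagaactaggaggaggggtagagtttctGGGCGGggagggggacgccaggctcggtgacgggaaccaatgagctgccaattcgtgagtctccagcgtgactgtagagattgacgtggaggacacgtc
Tbx4: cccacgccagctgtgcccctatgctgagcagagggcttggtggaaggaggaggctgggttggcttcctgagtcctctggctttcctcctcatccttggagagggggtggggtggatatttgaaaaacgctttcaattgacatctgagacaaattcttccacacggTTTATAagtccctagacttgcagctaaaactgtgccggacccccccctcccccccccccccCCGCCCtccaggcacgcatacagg
Barx1: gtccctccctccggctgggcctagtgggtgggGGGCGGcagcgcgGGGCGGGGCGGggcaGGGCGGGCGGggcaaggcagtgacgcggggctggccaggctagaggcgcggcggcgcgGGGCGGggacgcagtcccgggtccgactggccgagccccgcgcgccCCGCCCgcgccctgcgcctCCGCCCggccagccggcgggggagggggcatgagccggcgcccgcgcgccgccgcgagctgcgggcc
Shox2: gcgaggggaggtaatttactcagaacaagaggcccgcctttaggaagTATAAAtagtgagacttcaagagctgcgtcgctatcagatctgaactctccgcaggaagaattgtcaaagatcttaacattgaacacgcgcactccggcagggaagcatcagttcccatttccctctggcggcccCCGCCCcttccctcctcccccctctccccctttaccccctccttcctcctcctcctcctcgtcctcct
On the genome these windows are chr2:147364744-147364993 on the plus strand for Pax1, chr11:85896515-85896764 on the plus strand for Tbx4, chr13:48662786-48663035 on the plus strand for Barx1 and chr3:66981772-66982021 on the minus strand for Shox2. Over the full 300 bases, which run to 50 bases past the start, CCGCCC occurred 8 times at Barx1 and 1 time each at Pax1, Tbx4 and Shox2. Among 32851 promoters of that length, 35.7% held it. TATAAA occurred 1 time each at Tbx4 and Shox2 and was in 13.6% of promoters. The GC content was 84.7% at Barx1, above 99.9% of promoters, against 57.3% at Pax1, 59% at Tbx4, 53.3% at Shox2 and a median of 52.7% over the promoters. A match of letters is a description and not a binding site. The RefSeq start lay 10343 bases from the start of Tbx4 in the table and 3069 bases from that of Pax1, so these windows need not be the start used in cartilage.

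The libraries held 48171507 to 59085179 counts, and the ages differed widely in cell type markers. Summed FPKM (fragment counts divided by transcript length and library size) of 16 chondrocyte markers lay between 15200 and 24800 at 2 months and between 786 and 3470 at 18 months. All 16 markers were lower in every 18-month library, and Epyc was listed at 0 in all 3. The highest 18-month sum was that of replicate 1, at 3470 against 801 and 786 in replicates 2 and 3. Summed FPKM of 10 neutrophil markers were 8.89, 3650 and 57.8 in 2-month replicates 1, 2 and 3 and between 42000 and 47100 at 18 months. The 7 erythroid markers summed to 288, 7370 and 788 and to between 29900 and 39600. All 10 neutrophil and 7 of 7 erythroid markers were higher in every 18-month library, and 2-month replicate 2 stood apart from the other 2-month libraries on both lists. Xist, transcribed from the inactive X chromosome, had 88239 to 102417 counts at 2 months and 11 to 30 at 18 months, and the Y-linked Ddx3y had 0 to 10 and 4333 to 4839. The methods name male mice, so the 2-month libraries go against that description. Age, sex and the mix of cells cannot be told apart in this design, nor can fewer cells of a type and less RNA per cell in bulk tissue.

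Of the 10 members, 8 were lower in every 18-month library than in every 2-month library, and the other 2 overlapped. Across all 20397 genes tested, 32.8% were lower in that way and 35.6% were higher. With edgeR's quasi-likelihood test and the study's limits (Benjamini-Hochberg adjusted p below 0.05 and a log2 fold change past 1), 7 of 10 were past both limits, all on the lower side. The same limits were passed on the lower side by 21.3% of all genes tested and on the higher side by 14.9%. Since the members were chosen from this contrast, nothing is read from their count. All 10 passed the filter on low counts. The median log2 fold change of the members, 18-month over 2-month, was -3.31, and that of all genes tested was -0.02.

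**Figure D1:**
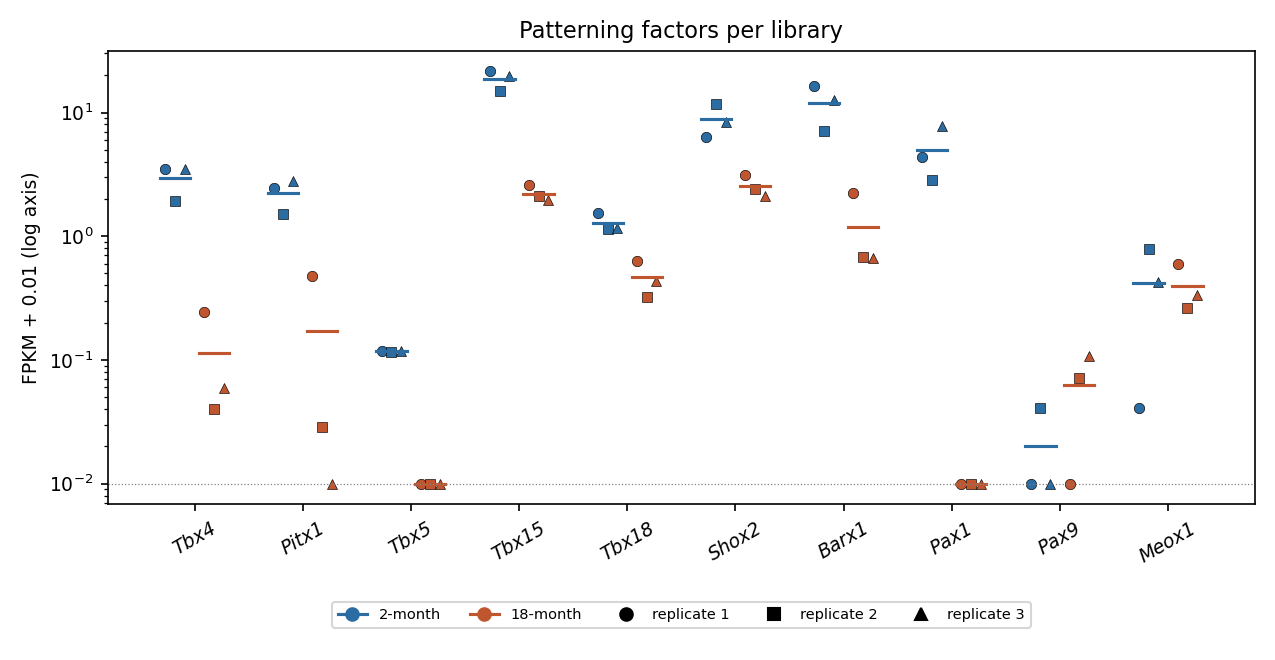
FPKM of the 10 patterning factors in each library, with 0.01 added, on a log axis. Points are libraries (circle, square and triangle for replicates 1, 2 and 3), bars are means, blue is 2-month and orange is 18-month, and the dotted line marks 0 FPKM. The 18-month points lie under all 2-month points for 8 genes, and Pax9 and Meox1 overlap.

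Tbx4 (ENSMUSG00000000094, chromosome 11 from 85886422 to 85916097, plus strand) had 649, 379 and 661 counts in 2-month replicates 1, 2 and 3. At 18 months it had 54, 7 and 11. Every 18-month library was below every 2-month library, and replicate 1 held most of the 18-month counts. FPKM averaged 2.94 ± 0.902 (SD, n = 3) in young and 0.105 ± 0.113 (SD, n = 3) in old cartilage, and the log2 fold change was -4.89 with a standard error of 0.87. Without 18-month replicate 1 it was -6.19.

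Pitx1 (ENSMUSG00000021506, chromosome 13 from 55825051 to 55836192, minus strand), the hindlimb homeobox gene upstream of Tbx4, had 356, 232 and 416 counts at 2 months. The 18-month libraries held 83, 4 and 0. The ages did not overlap, but the 18-month libraries were far apart, and the log2 fold change of -3.89 had a standard error of 1.56. Its FPKM went from 2.24 ± 0.67 (SD, n = 3) to 0.161 ± 0.262 (SD, n = 3) with age. Pitx1 was the member that was lower throughout without passing both limits, and it passed them with limma on FPKM or TPM and when 18-month replicate 1 was left out (log2 fold change -7.53).

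Tbx5 (ENSMUSG00000018263, chromosome 5 from 119832668 to 119885219, plus strand), the forelimb factor, had 28, 30 and 29 counts at 2 months and 0 in each of the 3 libraries at 18 months. The 2-month libraries were nearly identical and low, at 0.108 ± 0.00131 FPKM (SD, n = 3). With a floor of 3 counts per library, the 18-month level was at least 11.7-fold lower. Within the 2-month libraries the FPKM of Tbx4 was 32.1, 17.9 and 31.8 times that of Tbx5, with a mean of 27.3 ± 8.14 (SD, n = 3). The hindlimb factor therefore stood well over the forelimb factor per transcript length in each 2-month library. Tbx4 and Pitx1 kept a nearly constant ratio there, at 1.42, 1.28 and 1.24. At 18 months that ratio was 0.505 in replicate 1 and 1.63 in replicate 2, and it was undefined in replicate 3, where Pitx1 had no count.

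Tbx15 (ENSMUSG00000027868, chromosome 3 from 99240381 to 99354259, plus strand) was the member with the highest level at 2 months, at 4435, 3243 and 4157 counts. The 18-month libraries held 645, 498 and 464. The gap between the ages was wider than the spread within either. The FPKM went from 18.7 ± 3.5 (SD, n = 3) to 2.2 ± 0.32 (SD, n = 3), with a log2 fold change of -3.17 and a standard error of 0.22.

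Tbx18 (ENSMUSG00000032419, chromosome 9 from 87702800 to 87731260, minus strand), its close relative, had 395, 315 and 308 counts at 2 months and 199, 94 and 129 at 18 months. Its difference was the smallest among the 8 members that were lower throughout, at a log2 fold change of -1.57 with a standard error of 0.32. The FPKM was 1.27 ± 0.217 (SD, n = 3) and 0.455 ± 0.157 (SD, n = 3). The relatives did not keep their ratio: Tbx15 had 14.1, 13 and 17 times the FPKM of Tbx18 at 2 months and 4.1, 6.72 and 4.54 times at 18 months. Of the 50-base stretches of Tbx18 transcripts, 18.3% also occur in transcripts of other genes, so part of its counts is uncertain. The share was 6.79% for Pitx1, 3.5% for Pax9, 3.32% for Pax1, 3.15% for Shox2 and 0.368% for Tbx5. For Tbx15, Tbx4, Barx1 and Meox1 it was 0. Tbx5 and Pax1 shared stretches with each other, but no member did so with its own relatives among the members.

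Shox2 (ENSMUSG00000027833, chromosome 3 from 66971727 to 66981771, minus strand), the factor of the upper limb segment, had 1162, 2295 and 1555 counts at 2 months and 695, 500 and 450 at 18 months. Replicate 2 was the highest of the 2-month libraries, also per length, where the T-box members, Pitx1, Barx1 and Pax1 were lowest, and the ages did not overlap. The FPKM was 8.86 ± 2.77 (SD, n = 3) and 2.55 ± 0.513 (SD, n = 3), and the log2 fold change was -1.86 with a standard error of 0.24.

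Barx1 (ENSMUSG00000021381, chromosome 13 from 48662998 to 48666507, plus strand), the joint homeobox gene with the GC-rich promoter printed above, had 1251, 580 and 999 counts at 2 months. At 18 months it had 209, 59 and 59. Its FPKM fell from 12 ± 4.63 (SD, n = 3) to 1.18 ± 0.897 (SD, n = 3), a log2 fold change of -3.45 with a standard error of 0.65. Replicate 1 was the highest of the 18-month libraries, as for Tbx4 and Pitx1, and without it the log2 fold change was -4.24.

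Pax1 (ENSMUSG00000037034, chromosome 2 from 147361925 to 147375053, plus strand), the sclerotome factor, had 1076, 753 and 1945 counts at 2 months and 0 in each 18-month library. Per length it was at 4.97 ± 2.48 FPKM (SD, n = 3) at 2 months, behind Tbx15, Barx1 and Shox2. Against the floor of 3 counts per library, the 18-month level was at least 515-fold lower. No 18-month library held a count of it, replicate 1 included. That library held 20333 counts of Acan, the main cartilage proteoglycan, against 2307 and 2117 in replicates 2 and 3. Other chondrocyte markers were at or near 0 at 18 months. Matn1 had 54920, 15012 and 47321 counts at 2 months and 13, 5 and 0 at 18 months, and Epyc was listed at 0. The part of the cell mix in the level of Pax1 was not tested.

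Pax9 (ENSMUSG00000001497, chromosome 12 from 56691767 to 56712822, plus strand), the paralog that works beside Pax1, had 0, 10 and 0 counts at 2 months and 0, 20 and 32 at 18 months. The counts are low and overlap between the ages, and the libraries of an age differed, so the log2 fold change of 2.20 had a standard error of 1.82. Pax1 and Pax9 were thus far apart at 2 months, and the only 2-month library with both gave a Pax1 FPKM 93.3 times that of Pax9.

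Meox1 (ENSMUSG00000001493, chromosome 11 from 101877510 to 101894374, minus strand), the somite homeobox gene, had 4, 103 and 53 counts at 2 months and 88, 36 and 47 at 18 months. The 2-month libraries alone spanned the 18-month values. The FPKM was 0.411 ± 0.377 (SD, n = 3) and 0.387 ± 0.174 (SD, n = 3), and the log2 fold change of -0.13 had a standard error of 0.96. Its sign turned with the library left out, from -0.67 to 0.65, with the highest value without 2-month replicate 2.

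Ranked by mean FPKM, the members at 2 months ran from Tbx15 through Barx1, Shox2, Pax1, Tbx4, Pitx1, Tbx18, Meox1 and Tbx5 to Pax9. Most neighbours in this order overlapped between libraries, and the exceptions were Tbx18 over Meox1 and Tbx5 over Pax9. At 18 months the order was Shox2, Tbx15, Barx1, Tbx18, Meox1, Pitx1, Tbx4 and Pax9, with Tbx5 and Pax1 listed at 0. There only Barx1 and Tbx18 did not overlap as neighbours. At 2 months 5.66% of the genes in the table had a higher mean FPKM than Tbx15, and at 18 months 31.8% did.

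The 18-month libraries were not alike, and the members differed in how far replicate 1 stood from the mean FPKM of replicates 2 and 3. Chondrocyte markers were 4.38 times higher in replicate 1. Tbx4 was 5.91 times higher and Barx1 3.35 times higher there, and Pitx1 had 83 counts against 4 and 0. Meox1 was 2.02 times, Tbx18 1.68 times, Shox2 1.38 times and Tbx15 1.26 times higher. Pax9 went the other way, with no count in replicate 1 and 0.0795 FPKM on average in replicates 2 and 3. Whether the cell mix of replicate 1 plays a part in these values was not tested.

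Set against the chondrocyte markers, the members did not keep a fixed ratio between the ages. For every 1000 FPKM of those markers, Tbx4 went from a mean of 0.136 FPKM at 2 months to 0.0559 at 18 months, and it was lower in every 18-month library. Pax1, at 0 in every 18-month library, was also lower. Tbx5 was at 0 as well. In counts scaled to library size, its bound of at least 11.7-fold is smaller than the 17.7-fold fall of the summed markers. Nothing can therefore be read from the ratio of Tbx5. Shox2 went from 0.461 to 2.2, Tbx18 from 0.0618 to 0.372 and Meox1 from 0.0233 to 0.299, all higher in every 18-month library. Tbx15, Pitx1, Pax9 and Barx1 overlapped between the ages. Prg4, which encodes lubricin, and Cytl1 made up most of the marker sum at 18 months. The median log2 fold change of the 16 markers was -6.78, with -5.91 for Acan and -3.1 for Prg4, against -4.89 for Tbx4. The direction of a ratio to the sum therefore need not hold against each marker. Without Prg4, Tbx15 and Barx1 were also higher in every 18-month library, an alternative chosen after seeing the data. These ratios are a description of the same contrast that chose the members.

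**Figure D2:**
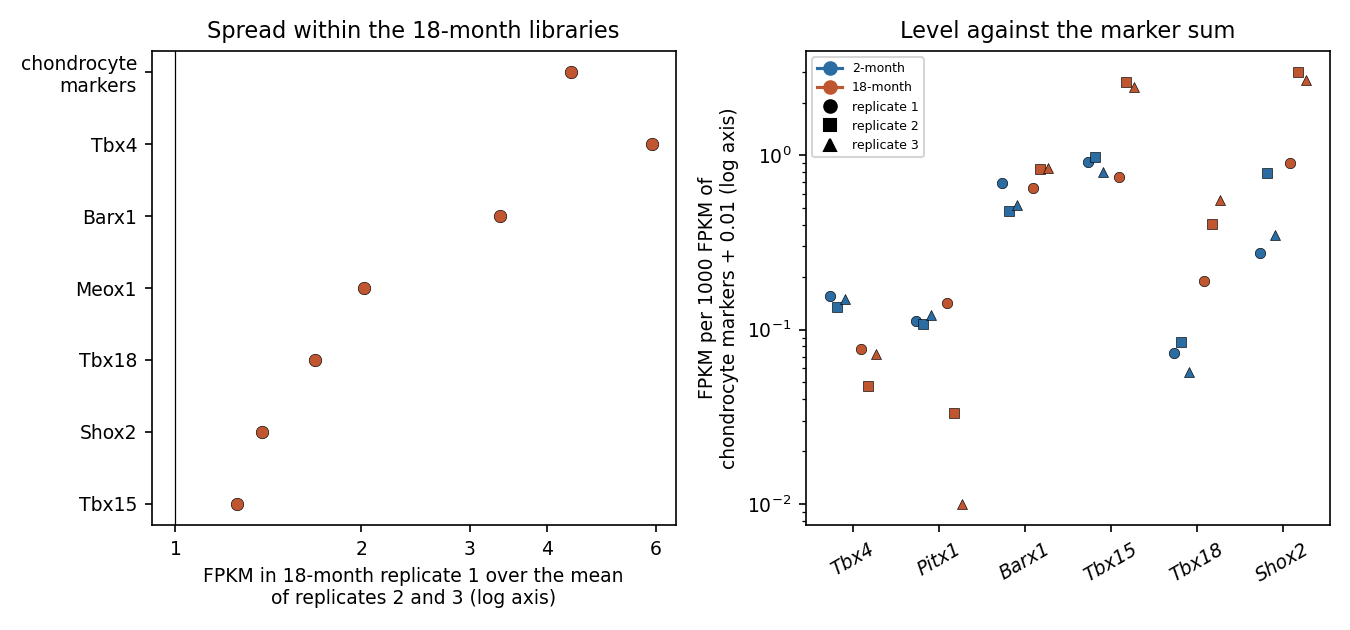
Left, FPKM in 18-month replicate 1 over the mean of replicates 2 and 3, on a log axis, for the summed chondrocyte markers and 6 members. Right, FPKM of 6 members for every 1000 FPKM of chondrocyte markers, with 0.01 added, on a log axis, by library (blue 2-month, orange 18-month). Tbx4 lies at 5.91 and Tbx15 at 1.26 on the left, and on the right Tbx4 is lower and Tbx18 and Shox2 are higher in all 18-month libraries.

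Within the 2-month libraries, replicate 2 carried more neutrophil and erythroid marker RNA. Its summed FPKM of chondrocyte markers was 0.622 times the mean of replicates 1 and 3. The markers did not all go that way: Col2a1 had 3360 FPKM in replicate 2 against 1410 and 1850. As a share of counts, the chondrocyte markers made up 8.1% in replicate 2 against 8.13% and 9.3%. Meox1 was 3.5 times and Shox2 1.61 times higher in replicate 2 than the mean of the other libraries. Tbx5 was at 0.981 times, Tbx18 at 0.846, Tbx15 at 0.716, Pitx1 at 0.57, Tbx4 at 0.549, Barx1 at 0.489 and Pax1 at 0.475. Osteoblast markers summed to 4690 FPKM in that library against 1660 and 1760, and tendon and synovial fibroblast markers to 948 against 387 and 363. The part of the cell mix in these differences was not tested.

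A set of 79 companion genes from the same programmes was listed by family and role, with earlier results of these data known. The shares called are therefore descriptions. Of these, 68 were in the table and 45 passed the filter on low counts. In edgeR's quasi-likelihood fit, with p-values adjusted by Benjamini-Hochberg, 26 were lower at 18 months (57.8% of those tested, against 21.3% of all genes) and 3 were higher. The remaining 16 passed in neither direction. Their median log2 fold change was -1.62. Chondrocyte markers were lower and neutrophil and erythroid markers higher in the same libraries, and the part of the cell mix in these counts was not tested.

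Among the other T-box genes, 7 were tested, 3 were lower (42.9%, against 21.3% of all genes) and 2 were higher (against 14.9% of all genes). Tbx20, best known from the heart, had 269, 187 and 167 counts at 2 months and 12, 28 and 34 at 18 months (log2 fold change -3.33, edgeR adjusted p = 0.0046). Mga, a broadly expressed repressor with a T-box, was lower (-1.13, edgeR adjusted p = 0.002), as was Tbx6, a factor of the early somite (-1.03, edgeR adjusted p = 0.021), though 9 alternatives did not call Tbx6, those without 2-month replicate 1 or 3 or 18-month replicate 2 or 3 among them. The genes that rose were Eomes and Tbx21, both known from T and natural killer lymphocytes. Eomes had 0, 20 and 0 counts at 2 months and 233, 143 and 159 at 18 months (log2 fold change 4.53, edgeR adjusted p = 0.042), and Tbx21 had 4, 21 and 7 and then 118, 95 and 131 (3.19, edgeR adjusted p = 0.0082). The value of Tbx21 was 4.04 without 2-month replicate 2. Without the same library Eomes had no count left at 2 months and stayed past the limits (edgeR adjusted p = 0.00053). Eomes was not called in 8 alternatives, among them those without 2-month replicate 1 or 3 or any 18-month library. Tbx2, which lies 44474 bases from Tbx4, had 95, 1267 and 160 counts at 2 months and 1170, 1210 and 1203 at 18 months (1.07, edgeR adjusted p = 0.36), with 2-month replicate 2 at the 18-month level. Without that library the log2 fold change of Tbx2 was 2.91 and past both limits (edgeR adjusted p = 0.00049). Tbx3, the neighbour of Tbx5, had 11, 65 and 43 counts and then 60, 20 and 3 (edgeR adjusted p = 0.55).

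Of the other Pax genes 2 were tested, and neither passed the limits. Pax5, the B lymphocyte factor, had 4, 1710 and 29 counts at 2 months and 953, 897 and 795 at 18 months, and Pax8 had 0, 15 and 0 and then 36, 100 and 88 (edgeR adjusted p = 0.84 and 0.074). Without 2-month replicate 2 both were higher and past the limits: the log2 fold change of Pax5 was 5.41 (edgeR adjusted p = 0.0016), and Pax8 was left with no count at 2 months (edgeR adjusted p for the log2 fold change of Pax8 0.0046). Pax8 also passed with DESeq2 and with limma on log2(FPKM + 0.1) or TPM. The B lymphocyte markers summed to 1.0, 92.1 and 1.62 FPKM in the 2-month libraries and to between 65.0 and 80.0 at 18 months, with 2-month replicate 2 far over the other 2-month libraries, as for Pax5. Among the homeobox paralogs 1 of 4 was tested: Meox2 had 442, 387 and 378 counts at 2 months and 72, 11 and 15 at 18 months (log2 fold change -3.94, edgeR adjusted p = 0.0084), and -5.16 without 18-month replicate 1. Meox2, a somite and limb muscle factor, was thus lower while its paralog Meox1 overlapped between the ages. The difference between the paralogs was not tested.

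Other limb transcription factors were lower in 11 of the 21 tested (52.4%, against 21.3% of all genes), and the other 10 passed in neither direction. Msx2, a homeobox gene of the limb tip and skull, had 28, 48 and 30 counts at 2 months and 2, 0 and 0 at 18 months, at least 14-fold lower against the floor (edgeR adjusted p = 0.0058). Prrx2, a homeobox gene of limb mesenchyme, had 165, 159 and 231 counts and then 34, 9 and 4 (log2 fold change -3.88, or -5.03 without 18-month replicate 1, edgeR adjusted p = 0.01). Tfap2a fell from 89, 28 and 52 counts to 11, 5 and 0 (-3.71, edgeR adjusted p = 0.036), a call that 7 alternatives did not give, those without 2-month replicate 1 or 3 or 18-month replicate 1 (-4.67) or 2 among them. Meis2, a homeobox gene of the proximal limb, was lower (-3.25, edgeR adjusted p = 0.0018).

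Of 7 limb bud signals, 3 were tested. Fgf10, the growth factor that starts limb outgrowth, had 0 counts in every 2-month library and 22, 20 and 38 at 18 months, at least 7.39-fold higher against the floor (edgeR adjusted p = 0.0072, not called with the replicate block, where p was 0.08). The BMP antagonist Grem1 had 7792, 5115 and 6503 counts at 2 months and 1274, 1069 and 1052 at 18 months (log2 fold change -2.81, edgeR adjusted p = 0.0011). Fgf10 and Grem1 thus moved in opposite directions.

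Of 12 axial and sclerotome factors listed, 8 were in the table and 4 were tested. All 4 tested were lower, against 21.3% of all genes. Nkx3-2, a sclerotome factor downstream of Pax1 and Pax9, had 400, 802 and 596 counts at 2 months and 61, 0 and 4 at 18 months (log2 fold change -5.10, edgeR adjusted p = 0.033). Like Tbx4 and Pitx1 it was highest in replicate 1 among the 18-month libraries, and without that library its log2 fold change was -8.33. It missed the limit without 2-month replicate 3 and without 18-month replicate 3. Gli2, which carries the hedgehog signal, had 3372, 2700 and 4356 counts and then 275, 206 and 157 (-4.33, edgeR adjusted p = 0.00092). Foxc1, a somite forkhead factor, was also lower (-1.99, edgeR adjusted p = 0.0009). Foxc2, the remaining factor tested, was close to the limit (-1.04, edgeR adjusted p = 0.036). It was not called in 10 alternatives, those without 2-month replicate 1 or 3 or 18-month replicate 2 or 3 among them.

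Of the 7 joint interzone genes, which mark the cells that form the joint, 6 were lower (85.7%, against 21.3% of all genes). Enpp2, the enzyme that makes lysophosphatidic acid, had 13985, 11279 and 13725 counts at 2 months and 3417, 1019 and 747 at 18 months (log2 fold change -3.24, edgeR adjusted p = 0.0075). Creb5, a factor of superficial cartilage, had -3.13 (edgeR adjusted p = 0.0082) and the odd-skipped factor Osr2 had -2.66 (edgeR adjusted p = 0.017). Gdf5, the growth factor of the interzone, had 223, 119 and 87 counts and then 40, 0 and 0 and missed the limit (-3.78, edgeR adjusted p = 0.10). Scaled to library size, 6 of the 7 were highest in replicate 1 among the 18-month libraries, the exception being Osr1. Without replicate 1 the log2 fold change was -4.11 for Enpp2, -3.97 for Creb5 and -3.60 for Osr2. Osr2 missed the limit without 18-month replicate 2 or 3.

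Among 13 transcription factors of chondrocytes, 12 were lower (92.3%, against 21.3% of all genes), with a median log2 fold change of -2.03. Sox6, among those 12, was at the limit (-1.0) and was not called in 11 alternatives. Sox9, the master factor of cartilage, had 11935, 9829 and 12327 counts at 2 months and 905, 153 and 149 at 18 months (-5.16, or -6.46 without 18-month replicate 1, edgeR adjusted p = 0.0051). Runx2, the bone and growth plate factor, had -1.97 (edgeR adjusted p = 0.00071) and Mef2d had -1.11 (edgeR adjusted p = 0.0017). The Hox genes set position along the body and limb axes. Of 31 tested, 22 were lower (71.0%, against 21.3% of all genes) and 9 passed in neither direction, with a median of -2.43. The most abundant were Hoxc10 (-3.68), Hoxd8 (-3.33) and Hoxd9 (-4.15, or -4.80 without 18-month replicate 1), all past the limits (edgeR adjusted p = 0.0017, 0.0015 and 0.0027). No test compared these lists with the members, and the lists were also chosen with earlier results of these data known.

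**Figure D3:**
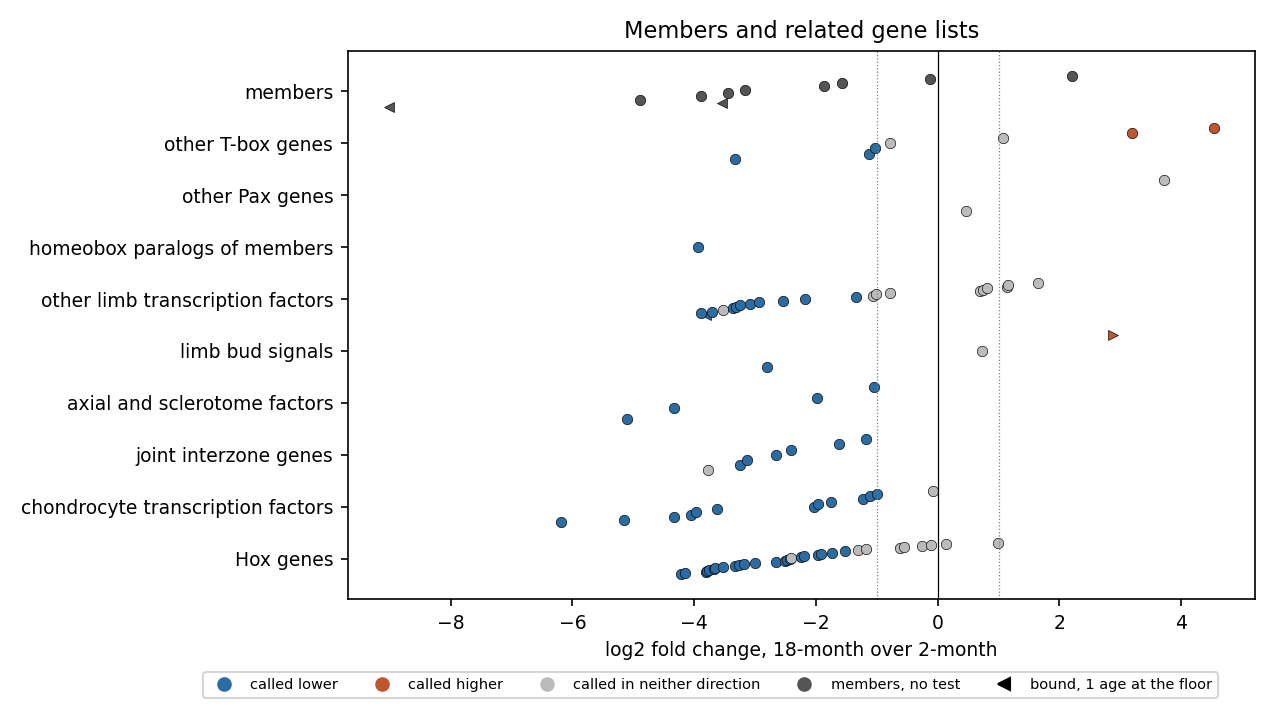
Log2 fold change, 18-month over 2-month, of the members and of the genes tested in each related list. Each point is a gene, blue was called lower, orange called higher and light grey neither, members are dark grey without a test, and triangles are bounds for genes with no more than 3 counts in every library of an age. The medians are -3.31 for the members, -2.03 for chondrocyte factors and -2.43 for Hox genes.

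Genes next to the members on the chromosome gave a mixed picture. Within 100 kb lay 34 genes, of which 18 were tested, 5 were lower (27.8%, against 21.3% of all genes), 1 was higher (against 14.9%) and 12 were neither. The lower ones numbered 3 without 2-month replicate 1, without 2-month replicate 3 or without 18-month replicate 3, and the higher ones 5 without 2-month replicate 2. Overlapping antisense transcripts were among them. Gm43120, antisense at Tbx15, had 29, 21 and 19 counts at 2 months and 0 in each 18-month library, at least 9.31-fold lower (edgeR adjusted p = 0.0053), and AI646519, antisense at Pax1, had 42, 11 and 61 and then 0 in each, at least 15.8-fold lower (edgeR adjusted p = 0.015). Both went the way of the gene they overlap. By contrast Gm47071, antisense at Pitx1, had 120, 328 and 209 counts and then 833, 847 and 648 (log2 fold change 1.59, edgeR adjusted p = 0.012), opposite to Pitx1. The libraries kept strand, but the strand setting of the counting is not given in the sources used here. Reads of a member and its antisense partner may therefore be mixed. Transcripts of Pitx1 share 50-base stretches with Gm47071, and those of Pax1 with AI646519. Ptpdc1, 37334 bases from Barx1, was lower (-2.58, edgeR adjusted p = 0.002), as were Etv4 near Meox1 (-2.53, edgeR adjusted p = 0.019) and Txndc15 near Pitx1 (-1.04, edgeR adjusted p = 0.0063). Txndc15 was not called in 8 alternatives and Etv4 in 5, each among them without 2-month replicate 1 or 3 and without 18-month replicate 3, Etv4 also without 18-month replicate 2, and the value of Etv4 was -3.37 without 18-month replicate 1. These neighbours are named because the counts are of 5 or fewer, after their values were seen. Within 250 kb, a window added after seeing the data, 8 of 46 tested genes were lower (17.4%) and 5 were higher (10.9%).

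**Figure D4:**
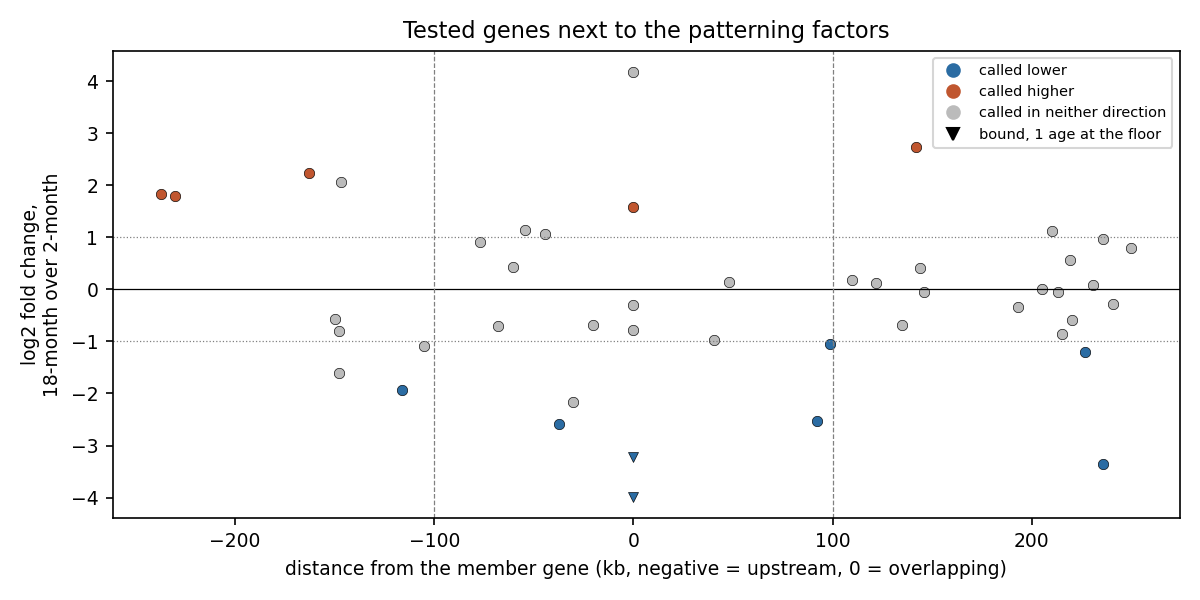
Log2 fold change, 18-month over 2-month, of tested genes within 250 kb of a member against the distance to it in kb, with negative values upstream and 0 for genes that overlap it. Dashed lines mark 100 kb and triangles are bounds for genes with no more than 3 counts in every library of an age. Called genes lie on both sides of 0 on the log2 scale, with 8 lower and 5 higher among 46.

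Genes were also ranked by how closely log2(FPKM + 0.1) followed the mean standardized level of the members over the 6 libraries. The 5 closest were AU022252 (Pearson r 0.9994), Exoc6b (0.999), Pla2g5 (0.9987), Rbm18 (0.9987) and Cdc37l1 (0.9986). The FPKM of Pla2g5, a secreted phospholipase, was 26.3, 33.0 and 35.0 at 2 months and 5.84, 3.22 and 3.71 at 18 months. Of the members, Tbx5 (0.9815), Shox2 (0.9764) and Tbx15 (0.9732) followed that mean most closely, while Meox1 had 0.0104 and Pax9 -0.6191. The mean includes each member itself and holds the contrast that chose the members, so these values are only a description. With 6 libraries that divide by age, 1.69% of all genes tested had an r above 0.99.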

How the data were processed

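The authors deposited, per the file headers, whole-number counts and FPKM for each gene in 3 libraries from 2-month and 3 from 18-month cartilage. The submitters' processing notes name cutadapt 1.9, HISAT2 2.0.4, UMI-tools and StringTie 1.3.4d, without their roles, and DESeq2 and edgeR. The strand setting and gene lengths are not given in the sources used here. All 6 libraries entered, and 0 columns were left out. Of the table's genes, 33865 (99.7%) were found in GENCODE M21 (GRCm38), with 9 of 10 members at identical coordinates. Libraries held 48171507 to 59085179 counts, which limits genes with few reads, so that a floor of 3 counts per library was used.

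The counts entered edgeR 4.0.16 in R 4.3.3 (TMM, filterByExpr, quasi-likelihood test, Benjamini-Hochberg adjustment) without a replicate block over 20397 genes. With 3 against 3, an exact permutation test cannot go below 0.1. Alternatives used DESeq2 1.42.0, limma 3.58.1 on log2(FPKM + 0.1), other scalings, filters and pseudocounts, a replicate block, and leaving out each library. The test was also run on simulated counts, with the same dispersion for every gene and changes only in genes with ample counts. That run says nothing about outlying libraries or genes near 0. Figures used matplotlib 3.10.9.

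Members and lists were chosen with earlier results of these data known. Named genes are all members, the 3 largest rises and falls called in each companion list, the 3 most abundant genes of each comparison list and the 5 closest by correlation. Other genes were chosen after their values were seen. Protein sequences were not used here. The values of 1 gene of the limb list are not reported here.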

Additional observations from a re-analysis of the deposited data

How the results depend on the processing

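The members past both limits on the lower side numbered 6 to 8 across alternatives, and 5 of the 6 tested with a mean FPKM of at least 1 (7 of 10 as reported). All-gene calls ranged from 5097 to 9594. No called value reversed, and the TPM scaling moved the median of all genes to -0.33. Tbx5 lost its call under the block and Tbx18 with limma on log2(FPKM + 1). The log2 fold change of Meox1 ranged from -0.67 to 0.65. Chondrocyte factors called lower numbered 9 to 12 across alternatives, and Hox genes called lower 17 to 24. Companions lower were 17 with limma on log2(FPKM + 1) and 21 to 29 when a library was left out. Companions higher were 0 with a mean FPKM of at least 1, 0 with limma on log2(FPKM + 1), 5 with DESeq2, and 2 to 7 when a library was left out, with 7 without 2-month replicate 2. Neighbours lower were 2 with a mean FPKM of at least 1, 1 with limma on log2(FPKM + 1), 8 with TPM and 3 to 7 when a library was left out. Neighbours higher were 3 with DESeq2, 3 with limma on log2(FPKM + 0.1), 2 with log2(FPKM + 1), 2 with TPM and 1 to 5 when a library was left out. The cause was not tested. These neighbour alternatives were added after seeing the data.

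Deviations of same-numbered libraries correlated at 0.077, 0.080 and -0.070. Those of differently numbered libraries ranged from -0.106 to 0.108. With 3 libraries per age, these values cannot show whether same-numbered libraries share more than a number. With the replicate block 6032 genes, 6 members, 23 companions lower and 1 higher, 3 neighbours lower and 1 higher passed the limits. Eomes, Nkx3-2, Tfap2a, Fgf10, Gm43120 and AI646519 were not called with the block. Genes with few counts are limited most: a fold against an age with no count is only a bound.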
